A study of Drosophila melanogaster with 3 samples.

Results

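The genes described here are 10 members of the epidermal growth factor (EGF) receptor pathway of Drosophila: Egfr, spi, vn, rho, drk, Ras85D, pnt, aop, aos and sty. They were chosen by name, out of 13945 protein-coding genes, with earlier results of these data known. A peak was given to a gene when its summit lay inside the gene or no more than 10 kb from either end. By that rule the 10 genes held 74 of the 9515 summits of the authors' list of reproducible peaks, and no summit counted for more than 1 of them. The summits came from chromatin immunoprecipitation and sequencing (ChIP-seq) of Blimp-1, the fly relative of the zinc finger repressor PRDM1, in whole embryos of a transgenic line in which the protein carries GFP at its C terminus. The embryos were 10 to 12 h old by the source name, the chromatin was sonicated to 200 to 800 bp and the antibody was directed against GFP. The age field of the labels carries a number that cannot be an embryo age. The series has 3 biological replicates of 1 group and no second group, so nothing was tested between conditions. Whole embryos mix all cell types, so a peak does not say in which cells the tagged protein was bound.

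In the fly, Egfr is a receptor tyrosine kinase that responds to several activating ligands and passes its signal through the adaptor Drk, the small GTPase Ras85D and the MAP kinase cascade to the ETS-domain factors Pointed and Aop (Yan). The ligand Spitz is made as a membrane-bound precursor that the intramembrane protease Rhomboid releases. The pathway also switches on its own inhibitors, among them the secreted protein Argos and the intracellular protein Sprouty. In the embryo it is known for patterning the ventral ectoderm, the tracheal system and the epidermis.

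The sequences that carry the main observations lie at 5 of the genes, and they are from the dm6 assembly, read 5′ to 3′ on the strand of the site or, where there is no site, of the gene. The site searched for was the 8-base element AGTGAAAG or AGCGAAAG on either strand, the core that Blimp-1 and PRDM1 are known to bind. The first 3 sequences hold an exact site, in capitals. They are the peak at the internal start site of spi (2L:19575754-19575854, plus strand), the strongest peak near spi, which is in the 5′ end of Pmvk (2L:19580133-19580162, minus strand, shown for 30 bases around the site), and the peak in the first intron of vn (3L:5828824-5828924, minus strand). The last 3 are the strongest summits at aos (3L:16480511-16480611, minus strand), sty (3L:3396235-3396335, minus strand) and pnt (3R:23334449-23334549, minus strand). They are shown because each was among the 500 strongest of the list and none holds an exact site within 50 bp of the summit, and their only capital is the summit base. The summits at and near drk that meet the same criteria are described below without their sequence.
spi start site: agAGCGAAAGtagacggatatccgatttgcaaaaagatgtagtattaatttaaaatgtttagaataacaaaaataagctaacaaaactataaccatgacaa
Pmvk, near spi: tggcgagcaaaAGTGAAAGttgcgccagaa
vn intron: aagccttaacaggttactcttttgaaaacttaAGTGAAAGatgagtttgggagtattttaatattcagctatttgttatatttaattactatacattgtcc
aos intron: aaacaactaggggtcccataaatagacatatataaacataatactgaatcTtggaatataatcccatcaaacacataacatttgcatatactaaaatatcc
sty downstream: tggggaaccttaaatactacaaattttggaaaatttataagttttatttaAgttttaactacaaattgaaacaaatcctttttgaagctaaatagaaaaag
pnt intron: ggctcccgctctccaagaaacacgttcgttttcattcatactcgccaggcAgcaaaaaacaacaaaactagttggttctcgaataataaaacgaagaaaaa

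Each of the 10 genes had a summit of the list in its body or within 10 kb, where 68.7% of all protein-coding genes had one. A summit lay inside the gene body at 9 of the 10, all but Ras85D, against 16.4% of all protein-coding genes. Inside the 500 bp around one of its own transcription start sites (TSSs) a summit was found at 6 genes (spi, rho, drk, pnt, aop and aos), against 20.5% of genes. A summit among the 500 strongest of the list lay in the body or within 10 kb at 5 genes (spi, drk, pnt, aos and sty), where 11.8% of genes had one. At spi and sty it lay outside the gene. None of these shares was matched for gene length or for the number of TSSs. The genes are long, with a median length of 17768.0 bp against 2166.0 bp over all protein-coding genes, and the share with a summit in the body rises with gene length: 53.0% of genes of 10 to 20 kb and 65.2% of those of 20 to 40 kb held one. Strength is given below as the rank of a peak by the signal value in the authors' lists, with 1 the strongest. The scale of that value is not defined in the sources used here. How deeply each replicate was sequenced is unknown, since the lists give peaks and not reads.

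**Figure D1:**
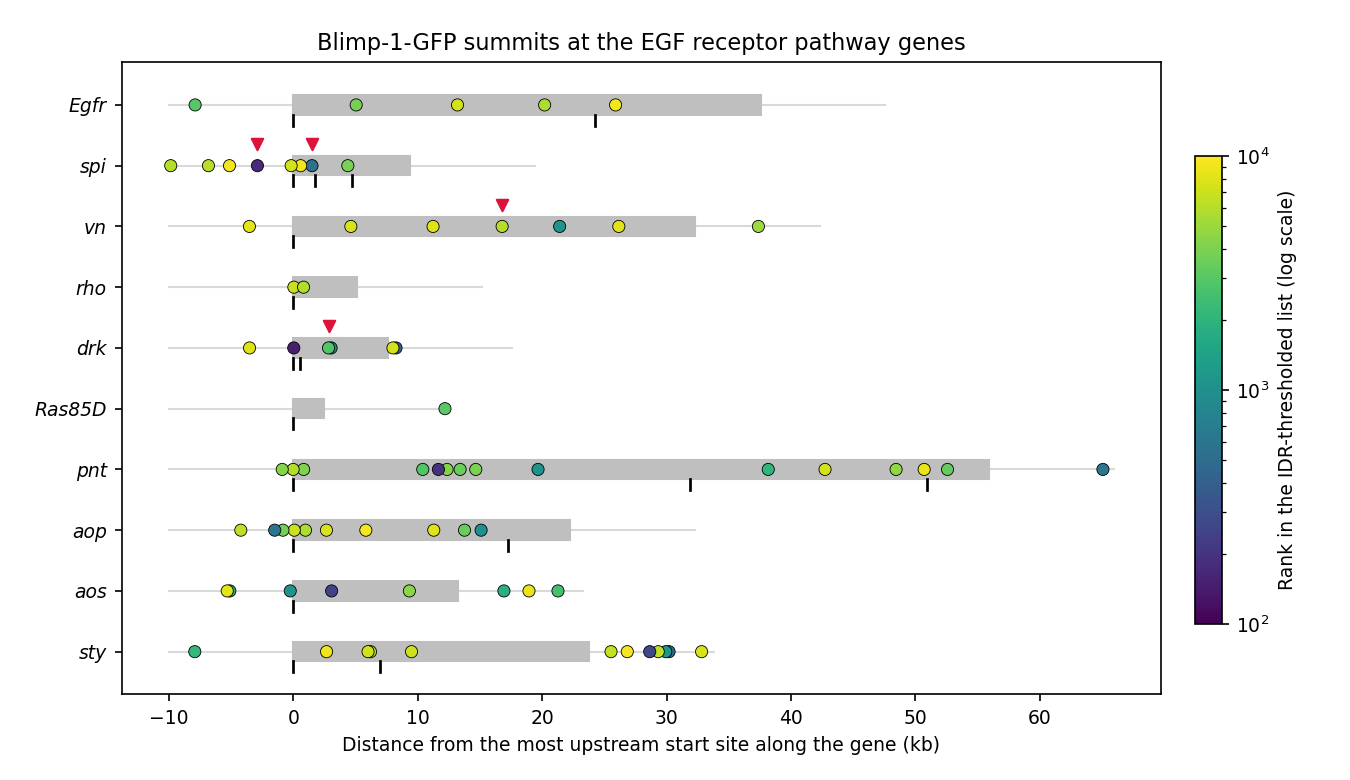
Position of the 74 summits along each of the 10 genes, as the distance in kb from the gene's most upstream start site, with transcription to the right. Grey boxes are gene bodies, the thin lines the 10 kb on either side, black ticks the annotated start sites, circles the summits coloured by rank in the reproducible list, and red triangles summits with an exact site within 50 bp. The darkest circles are at the start of drk (rank 148), upstream of spi (173), in pnt (196) and aos (239), and downstream of sty (270), while those of Egfr, rho and Ras85D all rank 2988 or weaker.

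The receptor gene itself had no strong peak. Egfr (FBgn0003731, 2R:21522420-21559977, 37.6 kb) had 5 summits, 4 of them in its long first intron. The strongest inside the gene, at 2R:21527349-21527615, lay 5061 bp downstream of the distal TSS at rank 3806 of 9515, and at ranks 5497, 3086 and 3564 in replicates 1, 2 and 3 (mean 4049.0 ± 1276.6, SD, n = 3). Replicate 1 placed it lower than the other replicates. The strongest within 10 kb was outside, in the 3′ UTR of the neighbour MESK2, 7881 bp upstream of Egfr, at rank 2988 and at 3378, 2756 and 3003 in the replicates (mean 3045.7 ± 313, SD, n = 3). The remaining 3 intron summits ranked 5527, 7338 and 9295. The one at rank 7338 had the widest spread of replicate ranks among the 69 summits matched in all 3 lists, with 24257, 8032 and 4341. Neither Egfr TSS had a summit of the reproducible list within 500 bp. The longer pooled list of 30000 peaks, which includes peaks below the authors' threshold, did have summits 42 bp and 20 bp from the distal and the proximal TSS, at ranks 19993 and 24634.

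Among the ligand genes, spi had 1 strong peak at a start site and a stronger one nearby, at the promoter of Pmvk. Inside vn all peaks were intronic. The gene spi (FBgn0005672, 2L:19567900-19577315), which encodes the main embryonic EGF receptor ligand, had 8 summits, and each of its 3 annotated TSSs had one within 500 bp. The strongest of these, at 2L:19575543-19576133, was 217 bp upstream of the second TSS and held the AGCGAAAG site shown above, with its centre 44.5 bp from the summit. It ranked 569 in the list and 468, 679 and 696 in replicates 1, 2 and 3 (mean 614 ± 127, SD, n = 3). The summits at the first and the most internal TSS were much weaker, at ranks 7457 and 3923. Their replicate ranks were 6381, 8664 and 10027 for the first and 3726, 4357 and 4145 for the internal one, so neither overlapped the range of the strong one.

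The strongest summit within 10 kb of spi belonged by distance to another gene. It lay at 2L:19579754-19580578, 162 bp from the TSS of Pmvk and 2874 bp upstream of spi, and held the AGTGAAAG site shown above, 41.5 bp from the summit. It ranked 173, and 146, 198 and 245 in the replicates (mean 196 ± 49.5, SD, n = 3). The other upstream summits were at the promoters of Hakai (rank 9225), CG10366 (6236) and Lar (5989), and the last 2 had no matching summit within 100 bp in replicate 1.

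The second ligand gene, vn (FBgn0003984, 3L:5813338-5845664, 32.3 kb), encodes Vein, a secreted neuregulin-like activator. It had 7 summits, 5 of them in its first intron. The strongest, at 3L:5824010-5824468, lay 21411 bp downstream of the TSS at rank 1072, and at 1004, 920 and 1353 in the replicates (mean 1092.3 ± 230, SD, n = 3). A weaker intronic summit at rank 6005 held AGTGAAAG 14.5 bp from the summit, the closest of the exact sites at these genes. Its ranks were 6231, 6155 and 7360 (mean 6582.0 ± 675, SD, n = 3). The strongest of the pair outside the gene was in an intron of the downstream neighbour S6k, at rank 5041 and at 4388, 5934 and 5554 in the replicates. The TSS of vn had no reproducible summit nearer than 3517 bp, and the nearest pooled-list summit, 155 bp away, ranked 21775.

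The gene of the ligand-processing protease, rho (FBgn0004635, 3L:1463811-1468944), had 2 summits, both inside the gene near its 5′ end and both weak. The gene lies within the body of Ptp61F, so both summits lie in that gene too. The summit 53 bp from the rho TSS, at 3L:1463771-1463929, ranked 6852, and 4900, 6148 and 11618 in the replicates (mean 7555.3 ± 3573.3, SD, n = 3). That 830 bp into the gene ranked 5913, with 5563, 5085 and 7887 in the replicates (mean 6178.3 ± 1498.9, SD, n = 3). Replicate 3 gave the weakest rank to both. No further reproducible summit lay within 10 kb of rho, and the next was 20684 bp away.

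Of the 2 transducer genes, drk had the strongest peak of all 10 genes at its promoter, and Ras85D had none in its body. The gene drk (FBgn0004638, 2R:13495222-13502841) encodes the Grb2-like adaptor that links the receptor to Ras activation. Its summit at 2R:13502076-13503142 lay 45 bp downstream of the TSS that 4 of its 5 transcripts use, in a sequence that mars also covers. It ranked 148, and 113, 237 and 162 in replicates 1, 2 and 3 (mean 171 ± 62.5, SD, n = 3). No exact site was found within 50 bp of it.

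A second peak in drk, at 2R:13499570-13500234, carried 2 summits in an intron. The stronger ranked 911, and 1386, 763 and 708 in the replicates (mean 952 ± 377, SD, n = 3). The weaker, at rank 2846, held AGCGAAAG 35.5 bp from the summit and had ranks of 1953, 3113 and 4978 (mean 3348.0 ± 1526.1, SD, n = 3). The TSS nearest to both was that of mars, at 827 and 618 bp. The strongest summit outside drk was at the promoter of the downstream gene bbc, at rank 421 and at 366, 410 and 572 in the replicates (mean 449 ± 108, SD, n = 3).

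Ras85D (FBgn0003205, 3R:9510561-9513067), which encodes the Ras GTPase of the pathway, had the fewest summits of the 10. Its single summit lay in an intron of RhoL, 9690 bp downstream, close to the 10 kb limit, at rank 3085 and at 3142, 2683 and 3827 in the replicates (mean 3217.3 ± 576, SD, n = 3). The pooled list also had no summit in the gene or within 500 bp of its TSS. The lists of single replicates differed there. Replicate 2 had a summit 171 bp from the Ras85D TSS at rank 5522, replicate 3 one at 130 bp at rank 4523, and replicate 1 had none among its 9515 strongest.

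Both ETS factor genes had 10 or more summits, and in pnt 5 of them stood close together in 1 intron. The gene pnt (FBgn0003118, 3R:23290231-23346167, 55.9 kb), which encodes the transcriptional activator Pointed, had 15 summits, 12 inside it. Between 10412 and 14671 bp from its most upstream TSS, 5 summits stood in an intron, around the start of the noncoding gene lncRNA:CR46090. The strongest, at 3R:23334195-23334785 (sequence shown above), ranked 196, and 212, 159 and 212 in the replicates (mean 194 ± 30.6, SD, n = 3). The other 4 of this run ranked 2868, 3508, 4045 and 4220.

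The start sites of pnt had weaker peaks. The summit 6 bp upstream of the distal TSS ranked 6030 and had no match in replicate 2, with 8709 and 5321 in replicates 1 and 3. That 226 bp upstream of the most internal TSS ranked 8654, with 9625, 8364 and 8381 (mean 8790.0 ± 723, SD, n = 3). The middle TSS had none within 500 bp. The strongest summit outside pnt was at the promoter of Cdc16, 9131 bp downstream, at rank 624. Its replicate ranks of 1202, 641 and 348 (mean 730 ± 434, SD, n = 3) were spread more than those of the intron peak.

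The gene aop (FBgn0000097, 2L:2156484-2178754, 22.3 kb) encodes Yan, the ETS repressor that opposes Pointed. It had 10 summits, and 9 of them had an aop TSS as the nearest one. The strongest, at 2L:2180057-2180444, was intergenic, 1485 bp upstream of the gene, at rank 592 and at 807, 474 and 467 in the replicates (mean 583 ± 194, SD, n = 3). The strongest inside the gene, at 2L:2163488-2163849, was intronic at rank 976, with 961, 1217 and 878 (mean 1018.7 ± 177, SD, n = 3). The summit 85 bp from the distal TSS ranked 7085, with 5189 and 6650 in replicates 2 and 3 and no match in replicate 1.

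The 2 inhibitor genes each had a summit among the 500 strongest, inside the gene in aos and downstream of it in sty. The gene aos (FBgn0004569, 3L:16470386-16483650) encodes Argos, which binds and sequesters Spitz, and it lies within the body of CG33158. Of its 8 summits the strongest, at 3L:16480340-16480799, was in its first intron, 3089 bp from the TSS. It ranked 239, and 271, 202 and 195 in the replicates (mean 223 ± 42.0, SD, n = 3). The promoter summit, 237 bp upstream of the TSS at 3L:16483670-16484169, was also the strongest outside the gene. Its rank was 1067, with 1171, 1191 and 943 in the replicates (mean 1101.7 ± 138, SD, n = 3). The other 6 ranked between 1803 and 8648.

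The gene sty (FBgn0014388, 3L:3401153-3424935, 23.8 kb) encodes Sprouty, a feedback inhibitor of receptor tyrosine kinase signalling. It had 12 summits, of which 7 stood in the intergenic sequence downstream. The strongest, at 3L:3395974-3396571, lay 4868 bp beyond the gene at rank 270, and at 359, 234 and 209 in the replicates (mean 267 ± 80.4, SD, n = 3). A neighbouring peak had 2 summits, at ranks 523 and 1120, with 677, 591 and 449 in the replicates for the stronger. The TSS nearest to all 7 was that of lncRNA:CR45737, at 645 to 5307 bp. Inside sty the strongest of 4 intronic summits ranked only 5811, with 4546 and 6425 in replicates 1 and 3 and no match in replicate 2. The 2 sty TSSs had no summit within 500 bp.

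**Figure D2:**
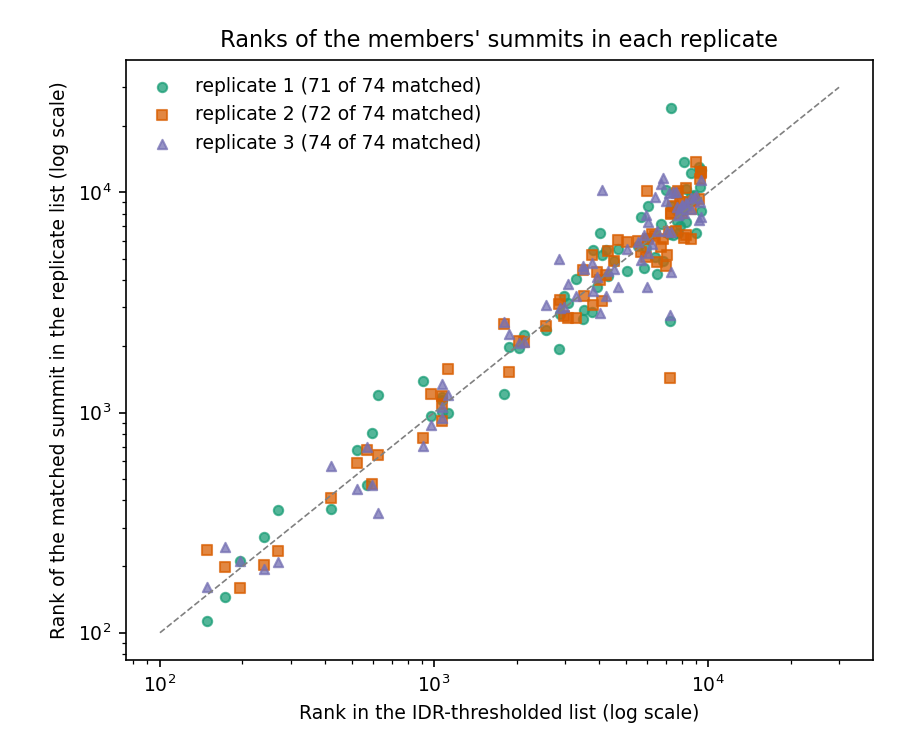
Rank of each of the 74 summits in the reproducible list (x, log scale) against the rank of the matching summit, within 100 bp, in each replicate's own list (y, log scale); the dashed line marks equal ranks, and summits with no match are left out for that replicate. The summits of rank 270 or stronger stayed within ranks 113 to 359 in all replicates, and points far from the line include the Egfr intron summit of rank 7338, at 24257 in replicate 1, and the summit of rank 7245 at the bbc promoter near drk, at 1437 in replicate 2.

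A summit within 100 bp was found in all 3 replicate lists for 69 of the 74 summits, or 93.2% (95% Wilson interval 85.1 to 97.1), against 91.4% of all summits of the list. The other 5, at spi (2), sty, pnt and aop, were matched in exactly 2 replicates. Across the 69 summits, Spearman's correlation of ranks was 0.902 between replicates 1 and 2, 0.827 between 1 and 3 and 0.872 between 2 and 3. Over all 8698 summits matched in 3 replicates it was 0.855, 0.831 and 0.902. These are descriptions across summits of lists that share 1 control, and the reproducible list was itself made from these replicates.

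The number of summits differed widely between the 10 genes: 15 at pnt, 12 at sty, 10 at aop, 8 each at spi and aos, 7 at vn, 6 at drk, 5 at Egfr, 2 at rho and 1 at Ras85D. At least as many as at pnt were found at 0.531% of all protein-coding genes, at least as many as at sty at 1.00% and as at aop at 2.05%. For spi and aos that share was 4.08%, for vn 6.01%, for drk 9.16%, for Egfr 14.2% and for rho 48.9%. Set beside genes of like length, pnt (upper quartile of genes over 40 kb: 9), sty and aop (20 to 40 kb: 7), aos (10 to 20 kb: 5), and spi and drk (5 to 10 kb: 4) were above the upper quartile. The count at vn equalled it, and Egfr lay between the median of 4 and that quartile. The counts at rho and Ras85D equalled the medians of their classes, 2 and 1.

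**Figure D3:**
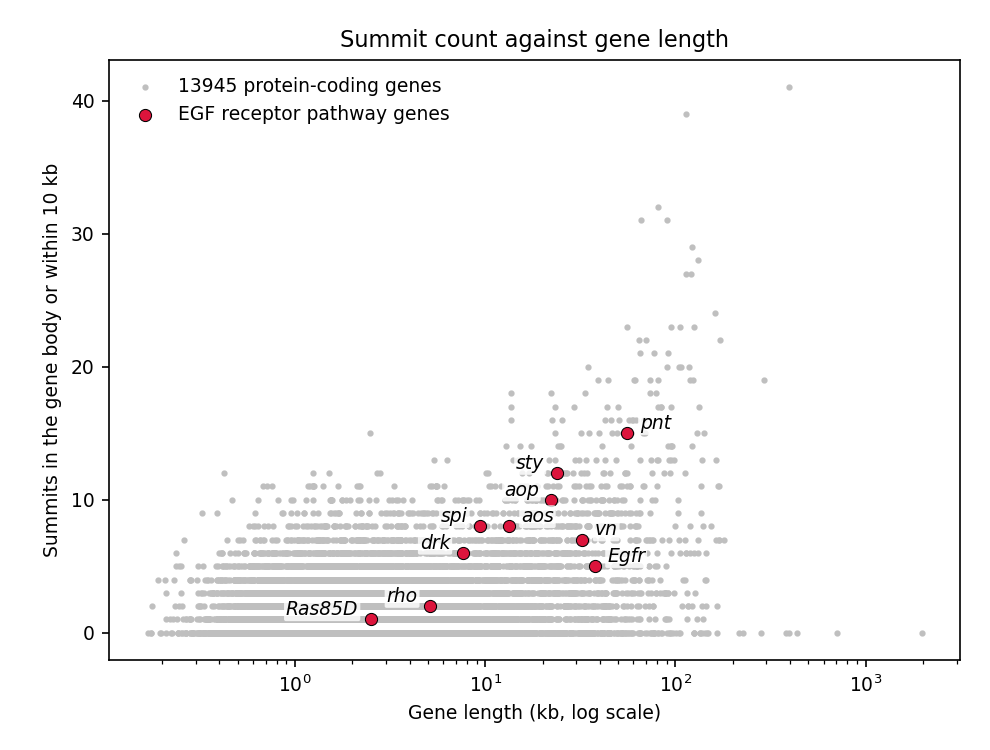
Number of summits inside each gene or up to 10 kb away (y) against gene length in kb (x, log scale) for 13945 protein-coding genes in grey, with the 10 EGF receptor pathway genes in red. The count of pnt (15) is the highest of the 10 and that of Ras85D (1), the shortest, the lowest, while Egfr, the second longest, has 5.

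Counted in each replicate over its 9515 strongest peaks, pnt again had the most. In replicates 1, 2 and 3 pnt had 15, 17 and 16 summits (mean 16 ± 1.00, SD, n = 3), sty 11, 9 and 10 (10 ± 1.00) and aop 13, 9 and 9 (10.3 ± 2.31). The ranges of sty and aop overlapped, so these genes do not differ in order beyond their spread. The gene aos had 8, 9 and 11 (9.33 ± 1.53), spi 7, 8 and 7 (7.33 ± 0.577), drk 6, 6 and 7, and vn 7, 6 and 6 (both 6.33 ± 0.577). Egfr had 5, 4 and 6 (5 ± 1.00). The lowest were Ras85D with 1, 2 and 4 (2.33 ± 1.53) and rho with 2, 2 and 1 (1.67 ± 0.577), whose ranges overlapped.

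In position and sequence make-up, the whole-list share lay inside the 95% interval of the 74 summits for each share given with an interval. Introns held 43 of them, or 58.1% (95% Wilson interval 46.7 to 68.7), against 47.0% of all summits, and 35 of the 43 were inside the member gene. Promoters, meaning within 500 bp of an annotated TSS, held 18, or 24.3% (16.0 to 35.2), against 31.4%. Of these, 9 were at a member's own TSS and 9 at that of another gene. Intergenic sequence held 11, or 14.9% (8.51 to 24.7), against 18.8%. Coding exons held 0 (0 to 4.93%), against 0.147% of all summits, so the 0 is no result about these genes. The nearest TSS belonged to the member gene for 38 summits and to another gene for 36. No like split over all genes is given here, so it is no result about these genes. The median rank was 4859.5 against 4758.0 over the whole list, the median peak width 411 bp against 357 bp, and the median GC content of the 101 bp at the summit 33.7% against 34.7%. The intervals cover counting error only, and summits that share a peak or a gene are not independent.

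**Figure D4:**
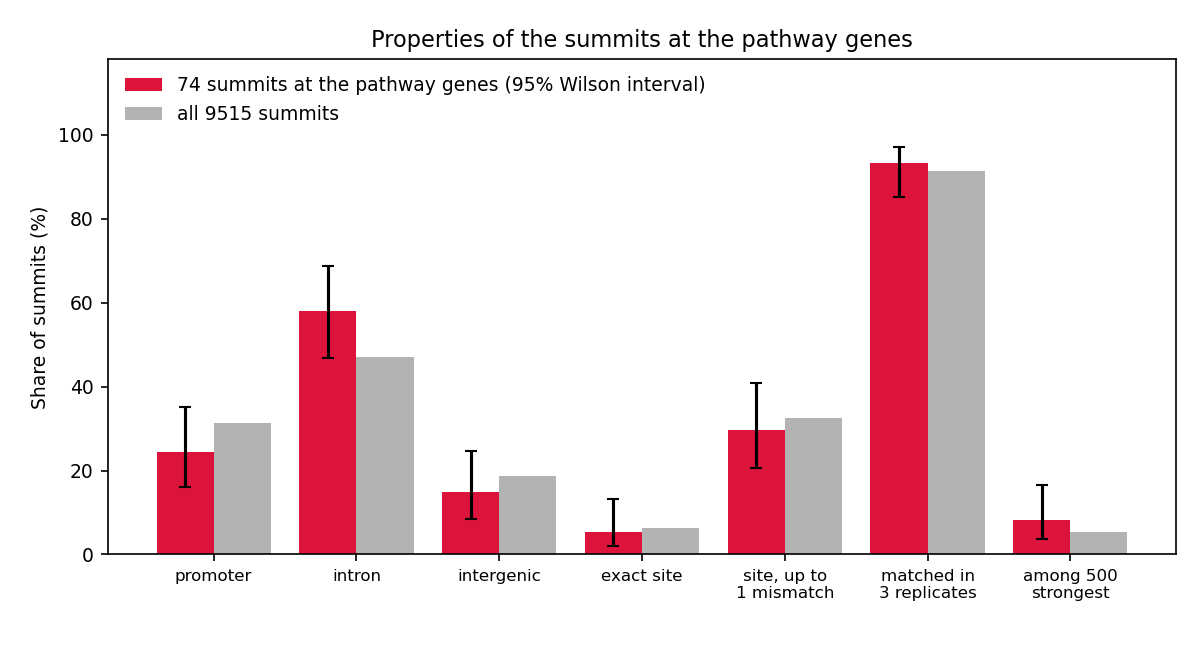
Share of summits (y, %) with each property, for the 74 summits at the pathway genes in red, with 95% Wilson intervals as error bars, and for all 9515 summits in grey. The whole-list share lies inside the interval of the pathway genes for each of the 7 properties plotted, and for introns it is close to the lower bound (47.0% against 46.7%).

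The exact site AGTGAAAG or AGCGAAAG was no more frequent at these genes than elsewhere in the list. It lay within 50 bp of 4 summits (2 at spi, 1 at drk and 1 at vn), or 5.41% (95% Wilson interval 2.12 to 13.1), against 6.31% of all summits. In windows of the same width 500 bp to the right of the summits it was found at 0 of the 74 (95% Wilson interval 0 to 4.93%). Over the whole list the share was 0.956%. With 1 mismatch allowed the site lay at 22 summits, or 29.7%, against 32.5% of all, and at 18.9% of the members' shifted windows. Of the 6 summits among the 500 strongest, only that at the Pmvk promoter near spi held the exact site. Read the other way, the 10 genes with 10 kb on either side held 39 exact sites in 410 kb, of which 4, or 10.3% (95% Wilson interval 4.06 to 23.6), lay within 50 bp of a reproducible summit, against 4.31% of the sites on the 6 main chromosome arms. At spi these were 2 of 6 sites, at drk 1 of 3 and at vn 1 of 6. The sites at the other 7 genes, among them 6 at aos and 5 at Egfr, had none. In the longer pooled list 8 of the 39 sites lay within 50 bp of a summit, among them 2 at Egfr and 1 at aos. No share of all sites is given for that list. The interval of the 10.3% includes the 4.31% of all sites. Summits were also denser around these genes, with a median of 2.07 per 10 kb against 0.482 over all protein-coding genes. The shares of sites were not adjusted for that density. A match of letters is not a bound site, and its absence from a window says nothing of the factor.

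The limit of 10 kb decided single cases. Just inside it lay the Lar promoter summit 9841 bp from spi and the RhoL intron summit 9690 bp from Ras85D. Just outside lay summits 10037 bp from pnt, 10213 bp from sty, 10227 bp from vn and 10463 bp from aop. The first beyond the limit at Ras85D was at 11712 bp.

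Another 33 genes of the pathway were listed from textbook knowledge, also with earlier results of these data known. Of these, 27 (81.8%) had a summit in the body or within 10 kb, 16 (48.5%) in the body and 12 (36.4%) at an own TSS. Over all protein-coding genes these shares were 68.7%, 16.4% and 20.5%. Most of the 33 genes are longer than the 2166.0 bp median of all genes, up to 54.5 kb, and the shares were not matched for length. Among all genes of 5 to 10 kb, 75.4% had a summit in the body or within 10 kb and 31.2% in the body. The 33 genes had a median of 4 summits. All 10 inhibitors and nuclear factors had at least 1, as did 6 of 8 ligands and processing genes (75%) and 11 of 15 transducers (73.3%). The last 2 shares are near the 68.7% of all genes and are no result about these genes. Of the 10 inhibitors and nuclear factors, 7 had a summit in the body. The strongest at ast, at rank 526, was inside S and is also the strongest at S. The strongest summit of the list at any of the 33 genes ranked 46 (64, 31 and 38 in the replicates) and lay near Mkp3, the MAP kinase phosphatase gene. It was at the promoter of Ugt316A1, 3406 bp from Mkp3. RasGAP1, which encodes a GTPase-activating protein for Ras, had one 673 bp upstream of its TSS at rank 61, with 70, 67 and 47 in the replicates.

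Near the adaptor gene Shc a summit at the aay promoter ranked 136 (233, 108 and 89 in the replicates). One at the start of lncRNA:CR45037, 5202 bp from Nf1, another Ras GTPase-activating protein gene, ranked 209 (121, 299 and 392). The kinase gene Raf had one in an intron, 2258 bp from its TSS, at rank 238 (274, 200 and 193). No summit of the list lay within 10 kb of 6 genes: stet and rho-4, which encode Rhomboid-family proteins, the Ras exchange factor gene Sos, the scaffold gene ksr, ave, and rl, the MAP kinase gene. The pooled list also had 0 summits there for Sos, ksr, ave and rl, and had 3 at stet and 1 at rho-4.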

How the data were processed

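ChIP-seq peak lists of 3 biological replicates, 1 pooled list and 1 list of pooled peaks passing a threshold on the irreproducible discovery rate (IDR) were used. The deposited notes give dm6 as the build and 1 control alignment for all replicates. The sources used here do not name the aligner, the caller or the IDR cutoff. The strength of a peak is a score (signal value) in the authors' deposited lists, used only to rank peaks within a list. The replicate and pooled lists held 30000 peaks each, and the 9515 IDR-thresholded peaks were the 9515 strongest of the pooled list. A peak called reproducible here is one on that list, which equals a cutoff on pooled rank. Of its summits, 91.4% had a match within 100 bp in all 3 replicate lists.

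Summits were placed on Ensembl release 115 gene models of the same assembly, without pseudogenes and transposable elements (Python 3.11.15, NumPy 2.4.6, SciPy 1.17.1). Promoters took priority over exons, exons over introns. A replicate match is a summit within 100 bp. Sequences are from the RefSeq dm6 assembly. Counting and site search were tested on simulated data. With 1 group no test was made.

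Described one by one are the strongest summit inside and outside each gene, those at an own TSS, those with an exact site and those among the 500 strongest, and of the other pathway genes the 5 with the strongest summit and those with none. Gap1 was matched as RasGAP1 through a RefSeq synonym. The genes, lists and rules were chosen with earlier results of these data known. Alternatives for distance, list, matching distance, site window, promoter width and single replicates were computed.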

Additional observations from a re-analysis of the deposited data

How the results depend on the processing

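The 74 summits depend on the distance and the list: there were 42 with the gene body only, 49 with 1 kb around it, 37 in the stronger part of the list (ranks 1 to 4757), 226 in the pooled list and 43 by nearest TSS. The count by nearest TSS has no distance limit, so it exceeds the 38 found among the 74. Of the other pathway genes, 16 had a summit in the body. Promoter summits numbered 31 within 1 kb of a TSS. The exact site lay at 1 summit within 25 bp, or 1.35%, against 4.01% of all summits. Within 100 bp it lay at 4 (5.41% against 8.51%), and over the whole peak at 6 (8.11% against 12.2%). With 1 mismatch allowed it lay at 22 (29.7% against 32.5%), and in shifted windows at 0 (0.956% of all). For each replicate in turn, the summits of the unchanged list were counted that had a match in both other replicates. There were 72, 71 and 69 without replicates 1, 2 and 3, and all 10 genes had at least 1. No list was remade. As 69 of the 74 matched in all 3 replicates, these counts could not be lower. With the body, 1 kb, 5 kb, the stronger part of the list or nearest TSS, 9 genes had one. Of 130 alternative counts for single genes, 89 stayed within 1.5 times the reported value, 15 were higher and 26 lower. The 89 include every count made without replicate 1, 2 or 3. Those counts had little room to change, so the 89 overstate how stable the counts are. No paired analysis was possible because there is 1 group and no comparison between groups. Depth is unknown, and counts reflect which peaks passed the authors' threshold.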
